A study of Rattus norvegicus with 18 samples.

Results

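The transcription factors of myelination examined here are Myrf, Nkx6-2, Nkx2-2, Tcf7l2, Olig1, Zfp488, Zfp24, Myt1 and St18. Their probe sets were found by gene symbol in the platform annotation, and a probe set counted only where that annotation gave it a single symbol. Of these 9 genes, 8 had such a probe set, 13 probe sets in all of 31142 on both array types, controls left out. Zfp488 had none and was not analysed here. Array A held 5 of the 13, for Myrf, Tcf7l2, Olig1 and St18. Array B held 8, for Nkx6-2, Nkx2-2, Tcf7l2, Zfp24 and Myt1.

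The samples were A2B5+ and O4+ cells sorted by flow cytometry from dissociated whole brains of male rats 7 days after birth. The A2B5 antibody binds gangliosides of glial progenitors and some neurons. The O4 antibody binds sulfatide and related lipids, which late oligodendrocyte progenitors and oligodendrocytes carry. Each array type held 5 A2B5+ and 4 O4+ biological replicates, each prepared from a litter of 10 pups, so a value averages over the animals of a litter. Both populations came from untreated pups as far as the labels say, and no strain is given in the sources used here.

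Oligodendrocytes are made from dividing progenitors that leave the cell cycle, switch on lipid synthesis and wrap axons with myelin. Olig1 and Nkx2-2 act early in that lineage. Myrf is a membrane-bound factor that cuts itself and then switches on myelin genes, and Tcf7l2 is a DNA-binding partner of beta-catenin that peaks as progenitors become oligodendrocytes. Nkx6-2 is a homeodomain factor that acts late and is needed for orderly paranodes. Zfp24 and Zfp488 are zinc finger proteins needed for, or promoting, oligodendrocyte maturation. Myt1 and St18 belong to the Myt family of zinc finger proteins, which also act in developing neurons.

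The deposited values are linear ratios. Most probe sets have a median of exactly 1 over their 9 arrays, so a ratio compares arrays for a given probe set and says nothing of the level of a probe set against another. Differences are given in log2 as the O4+ mean less the A2B5+ mean, ± the standard error from limma, fitted over all tested probe sets of an array type. A difference is called at a Benjamini-Hochberg adjusted p under 0.05, and n = 5 and 4 throughout. All 13 probe sets reached a ratio of at least 1 on at least 4 of 9 arrays, the minimum for testing. For 7 of them the 4 O4+ arrays alone were enough to pass, so passing is no support for a rise. Any probe set with a median of 1 over its 9 arrays passes, so the filter does not screen for level.

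Marker genes went with the sort. All 10 tested markers of mature oligodendrocytes were called higher in O4+ cells, and all 10 tested genes of dividing cells were called lower. Over all 11982 tested genes, 28.7% were called higher and 18.2% lower. Of 6 progenitor markers, 4 were lower and 1 higher. Of 16 neuron and neuroblast markers, 9 were lower and 3 higher. For astrocytes 6 of 9 were lower, for microglia 7 of 8, for endothelial and mural cells 7 of 10 and for ependymal cells 2 of 5, with none of these lists' genes higher by limma. The lower counts rest largely on ratios under 1. With such ratios set to 1 they were 3 for dividing cells, 2 for progenitors, 2 for neurons, 1 for astrocytes, 1 for microglia, 2 for endothelial and mural cells and 0 for ependymal cells, while all 10 mature oligodendrocyte markers were still called higher. Setting ratios under 1 to 1 treats falls and rises unequally. Where the median is 1 and all O4+ arrays lie below all A2B5+ arrays, every O4+ ratio becomes 1. Where they lie above, the O4+ ratios stay. The lost lower counts therefore do not tell how well the falls are supported. With an array left out, the neuron lower count was 5 without A2B5+ replicate 4, O4+ replicate 1 or O4+ replicate 3. The ependymal lower count was 1 without O4+ replicate 1 or 3. Fewer cells of a type and less RNA per cell cannot be told apart in such samples. O4+ replicate 2 on array A and O4+ replicate 4 on array B stood apart from the other O4+ arrays. They matched each other on the 100 probe sets that both types share (r = 0.93 across probe sets), against 0.34 at most between that array A replicate and any other O4+ array of type B. On these probe sets each A2B5+ array matched the array of its own number on the other type, and no O4+ array did.

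Myelination factors were higher in O4+ cells or did not differ by the test, and none was called lower. On array A all 5 probe sets were called higher, where 32.5% of all tested probe sets were called higher and 14.7% lower. On array B 3 of 8 were called higher, against a background of 9.93% higher and 13.8% lower. The 3 were those of Nkx6-2, Nkx2-2 and 1 of 3 for Zfp24. No member was called lower by limma, and at an unadjusted p under 0.05 the number lower was also 0. At that unadjusted threshold, in either direction, 57.3% of all array A probe sets passed and 37% of those of array B. With each array centred on its median the same counts, 5 and 3, were called. The centred background was 18.6% higher and 17.9% lower on array A, and 9.99% higher and 14% lower on array B. Array A differences include a shift of 0.17 in log2 terms. This shift is the mean of the O4+ array medians less that of the A2B5+ array medians. Every O4+ array lay above every A2B5+ array for 4 of 5 array A members and 1 of 8 array B members. Over all tested probe sets such separation was seen in 33.3% and 12.5%, and the reverse in 10.7% and 13%.

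**Figure D1:**
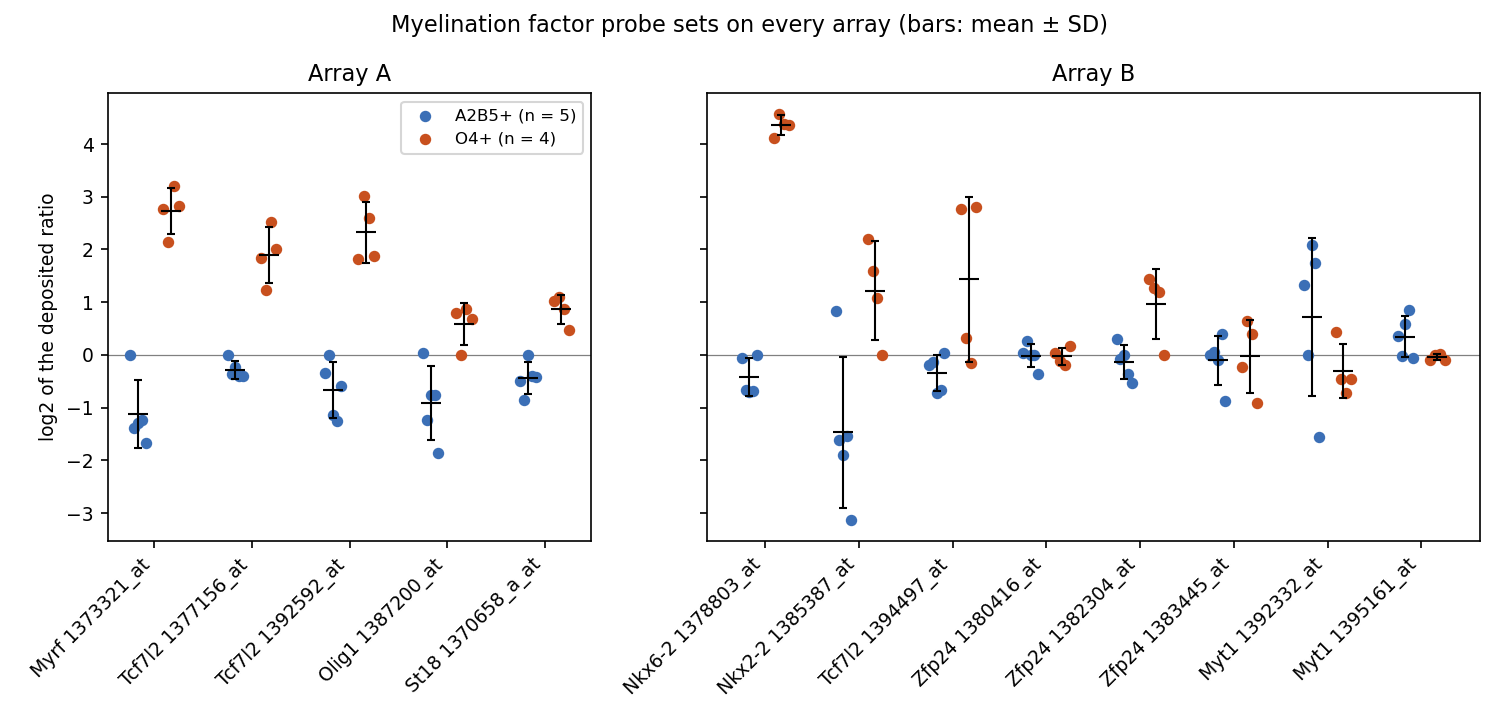
Log2 of the deposited ratio (vertical axis) for each of the 13 probe sets on array A (left) and array B (right). Blue points are the 5 A2B5+ arrays, orange points the 4 O4+ arrays, and bars give the mean and SD. For Nkx6-2, Myrf, St18 and both array A probe sets of Tcf7l2 every O4+ array lies above every A2B5+ array.

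Nkx6-2 had the largest difference among the members. Its probe set 1378803_at on array B had ratios of 0.963, 0.629, 0.615, 0.624 and 1 in A2B5+ replicates 1 to 5, and of 17.2, 23.8, 20.7 and 20.4 in O4+ replicates 1 to 4. No A2B5+ array came near an O4+ array, and the O4+ arrays lay close together. The difference was 4.77 ± 0.19 (limma adjusted p = 2.0e-06), a 27.3-fold change, and ranked 19 among the rises of 11136 tested probe sets on array B. With ratios under 1 set to 1 the difference was 4.35. As no A2B5+ ratio exceeded 1, that value is the mean log2 ratio of the O4+ arrays, on the deposited scale.

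The bases before the start of Nkx6-2 and of Myt1 are shown because these genes had the largest rise and the lowest fitted difference among the members. Sequences are from RefSeq on build GRCr8, whose promoter table held 6 of the 9 genes. Each line gives 250 bases that end just before the annotated start, read 5′ to 3′ in the direction of the gene, with capitals at every motif match.
Nkx6-2, chr1:203813123-203813372, minus strand: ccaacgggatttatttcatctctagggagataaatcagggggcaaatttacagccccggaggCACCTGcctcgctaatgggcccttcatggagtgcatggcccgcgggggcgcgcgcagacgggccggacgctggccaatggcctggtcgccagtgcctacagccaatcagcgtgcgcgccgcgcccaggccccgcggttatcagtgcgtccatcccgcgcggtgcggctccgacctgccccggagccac
Myt1, chr3:189296804-189297053, plus strand: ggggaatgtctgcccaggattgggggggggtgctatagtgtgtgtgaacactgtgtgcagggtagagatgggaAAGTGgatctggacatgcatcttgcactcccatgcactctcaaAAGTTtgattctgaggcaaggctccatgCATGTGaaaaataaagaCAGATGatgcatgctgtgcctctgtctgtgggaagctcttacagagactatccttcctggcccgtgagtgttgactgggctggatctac
Searched on both strands were the E-box CANNTG, bound by Olig proteins and related factors, the Sox core ACAAAG, the Tcf/Lef core TCAAAG, the Myrf core CTGGNAC, the Nkx2 core AAGTG and the Myt core AAGTT. Nkx6-2 held 1 E-box, 188 bases before the start. Myt1 held 2 E-boxes, 106 and 89 bases before it, with an Nkx2 core at 177 and a Myt core at 134. Among 33469 promoter windows of this length, 65.5% held an E-box, 40.6% an Nkx2 core and 35.9% a Myt core, so these matches are common. The windows of Nkx2-2 and Tcf7l2 held none of the 6 motifs, and the Sox, Tcf/Lef and Myrf cores, found in 16.3%, 13.9% and 14.8% of windows, were in none of the 6 members' windows. GC content was 67.2% before Nkx6-2 and 51.2% before Myt1.

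Myrf, which switches on the genes of myelin proteins, rose next most. Its probe set 1373321_at on array A had ratios of 1, 0.382, 0.411, 0.423 and 0.316 in the A2B5+ arrays and of 6.77, 4.40, 9.16 and 7.09 in the O4+ arrays. The lowest O4+ array, replicate 2, still lay above all A2B5+ arrays, and A2B5+ replicate 1 stood above the other A2B5+ arrays. The difference was 3.84 ± 0.33 (limma adjusted p = 1.5e-05), a 14.4-fold change that ranked 65 among the rises of 13098 tested probe sets. Setting ratios under 1 to 1 gave 2.73, and leaving out O4+ replicate 2 gave 4.04.

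Nkx2-2, an early homeodomain factor of the lineage that also acts in maturation, rose with wide spread. Probe set 1385387_at on array B had ratios of 1.78, 0.325, 0.268, 0.347 and 0.114 in the A2B5+ arrays and of 4.61, 3.03, 2.10 and 1 in the O4+ arrays. A2B5+ replicate 1 lay within the range of O4+ cells, and O4+ replicate 4, the array that stands apart, had the lowest O4+ value. The difference was 2.69 ± 0.75 (limma adjusted p = 0.031), with a 95% interval from 0.99 to 4.39. The call was lost when any of A2B5+ replicates 2, 3 and 4 or O4+ replicates 1, 2 and 3 was left out (limma adjusted p between 0.059 and 0.084), with differences that stayed between 2.36 and 2.74. It was also lost with no filter on low ratios (2.69, adjusted p = 0.051) and with ratios under 1 set to 1 (1.05, adjusted p = 0.16). Nkx6-2 and Nkx2-2, both homeodomain factors on array B, were compared array by array. The log2 ratio of Nkx2-2 minus that of Nkx6-2 changed by -2.08 from A2B5+ to O4+ cells, with overlap between the populations (exact two-sided permutation test over 126 splits, p = 0.048; 1 pair). Without A2B5+ replicate 5 the exact p was 0.029, and with any other array left out it lay between 0.086 and 0.125.

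Olig1, a basic helix-loop-helix factor of oligodendrocyte progenitors and maturing cells, rose moderately. Probe set 1387200_at on array A had ratios of 1.03, 0.427, 0.59, 0.589 and 0.277 in the A2B5+ arrays and of 1.73, 1, 1.83 and 1.60 in the O4+ arrays. Only O4+ replicate 2 and A2B5+ replicate 1 overlapped. The difference was 1.50 ± 0.34 (limma adjusted p = 0.0057), or 2.83-fold, and became 1.33 with arrays centred (adjusted p = 0.017). With ratios under 1 set to 1 it was 0.58 (adjusted p = 0.030).

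Of the Myt family members, St18 was called higher in O4+ cells and Myt1 was not called. They lie on different array types, and the difference between them was not tested. St18 probe set 1370658_a_at on array A had ratios of 0.713, 0.554, 1, 0.755 and 0.748 in the A2B5+ arrays and of 2.03, 2.14, 1.84 and 1.39 in the O4+ arrays. Every O4+ array was above every A2B5+ array. The difference was 1.30 ± 0.19 (limma adjusted p = 4.6e-04), 2.46-fold, and 0.87 with ratios under 1 set to 1.

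Myt1, a zinc finger factor of progenitors and newborn neurons, was measured by 2 probe sets on array B, and neither was called. Probe set 1392332_at had ratios of 2.50, 1, 4.25, 3.35 and 0.342 in the A2B5+ arrays and of 1.36, 0.725, 0.603 and 0.729 in the O4+ arrays. A2B5+ replicates 1, 3 and 4 lay above all O4+ arrays and A2B5+ replicate 5 below all of them. The difference was -1.02 ± 0.71 (limma adjusted p = 0.31), with a 95% interval from -2.63 to 0.58. Without A2B5+ replicate 5 it was -1.59 and was called (adjusted p = 0.043). Probe set 1395161_at had ratios of 1.29, 0.987, 1.50, 1.82 and 0.962 in A2B5+ cells and of 0.935, 1, 1.02 and 0.94 in O4+ cells. A2B5+ replicates 1, 3 and 4 were again the highest, and the O4+ arrays lay close together. Its difference was -0.39 ± 0.19 (adjusted p = 0.17). The 2 probe sets did not differ from each other by the exact permutation test (p = 0.37, adjusted p = 0.46 over 5 such pairs).

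Markers of several cell types varied among the same A2B5+ arrays, and not all in the same way. Over 5 progenitor markers on array A the mean log2 ratio was 0.88, 0.05, 0.85, 0.98 and -0.46 in A2B5+ replicates 1 to 5. It was high in replicates 1, 3 and 4 and lowest in replicate 5, as for Myt1 probe set 1392332_at. The low value in replicate 5 comes largely from Vcan, the marker of this list called higher in O4+ cells. Its probe sets had lowest A2B5+ ratios of 0.122 to 0.687. Those of Pdgfra and Cspg4 were 0.738 and 0.949, and Ptprz1 and Cspg5 did not fall below 1 in A2B5+ cells. Over 8 astrocyte markers the mean log2 ratio was 0.50, 0.11, 0.91, 0.74 and -0.10, with replicates 1, 3 and 4 high and replicate 5 again lowest. Over 14 neuron and neuroblast markers it was 1.45 and 1.11 in A2B5+ replicates 3 and 4, 0.37 and 0.26 in replicates 1 and 2, and -0.17 in replicate 5. The O4+ arrays lay between -0.75 and -0.34. A2B5+ replicates 3 and 4 were highest and replicate 5 lowest for these markers too. Other lists on array A ran otherwise. Over 8 microglia markers the mean was -0.01, 0.83, 0.17, 0.62 and 0.71 in A2B5+ replicates 1 to 5. Over 2 ependymal markers it was 2.01, 0.78, -0.07, -0.41 and 1.54. Replicate 5 was not the lowest A2B5+ array for 9 endothelial and mural markers (0.19) or 8 genes of dividing cells (0.48) either. On array B, where Myt1 lies, 2 neuron markers were tested, Dlx1 and Elavl3. Their means were 2.21 and 2.03 in replicates 3 and 4 and -0.55 in replicate 5. The 2 genes went opposite ways. Dlx1 was lower in O4+ cells (-3.40 ± 0.84) and Elavl3 higher on both probe sets (1.48 ± 0.25 and 1.24 ± 0.23). No A2B5+ ratio of Elavl3 exceeded 1, so the high means come from Dlx1 alone. The 1 astrocyte marker on array B was at 1.71, 1.63 and -0.06 in replicates 3, 4 and 5. The 1 progenitor marker there, Lhfpl3, was highest in replicate 1, at 0.56, and lowest in replicate 5, at -2.92. In replicates 3 and 4, where Myt1 probe set 1392332_at was highest, it was at -1.44 and -0.93. Its difference was 1.60 ± 0.59 and was not called (limma adjusted p = 0.082). The part of any of these cells in the Myt1 values was not tested.

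Tcf7l2 was higher in O4+ cells by both array A probe sets and not called by its array B probe set. Probe set 1377156_at had ratios of 1, 0.783, 0.849, 0.754 and 0.761 in the A2B5+ arrays and of 3.56, 2.34, 5.74 and 4.02 in the O4+ arrays. Its difference was 2.18 ± 0.23 (limma adjusted p = 5.9e-05), 4.52-fold. Both populations were clearly apart, with O4+ replicate 2 lowest among the O4+ arrays. Probe set 1392592_at had ratios of 0.789, 1, 0.454, 0.422 and 0.664 in the A2B5+ arrays and of 3.52, 8.05, 6.08 and 3.67 in the O4+ arrays. Here O4+ replicate 2 was the highest. The difference was 2.99 ± 0.32 (adjusted p = 6.6e-05), 7.94-fold. The difference between these 2 probe sets, -0.81 for the first minus the second, did not pass the exact permutation test (p = 0.14, adjusted p = 0.24 over 5 pairs).

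The array B probe set of Tcf7l2, 1394497_at, split the O4+ arrays. Its ratios were 0.881, 0.906, 0.609, 0.627 and 1.03 in the A2B5+ arrays and 6.82, 1.25, 0.901 and 6.95 in the O4+ arrays. The median of all these ratios was 0.906. Probe sets with a median below 1 may be scaled differently, and with a filter on the median ratio this probe set was not tested. O4+ replicates 1 and 4 stood far above all other arrays, while O4+ replicate 3 lay within the range of A2B5+ cells. The difference was 1.77 ± 0.64 (limma adjusted p = 0.076), with a 95% interval from 0.33 to 3.21, and it was called without O4+ replicate 3 (adjusted p = 0.027). Matched on shared probe sets, O4+ replicates 1 and 4 of array B correspond to replicates 3 and 2 of array A (r = 0.88 and 0.93 across 100 probe sets). These are the O4+ arrays with the highest ratios of probe set 1392592_at, 6.08 and 8.05, against 3.52 and 3.67 in the others. This match was made after seeing the data. Which transcripts each probe set detects was not analysed here.

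**Figure D2:**
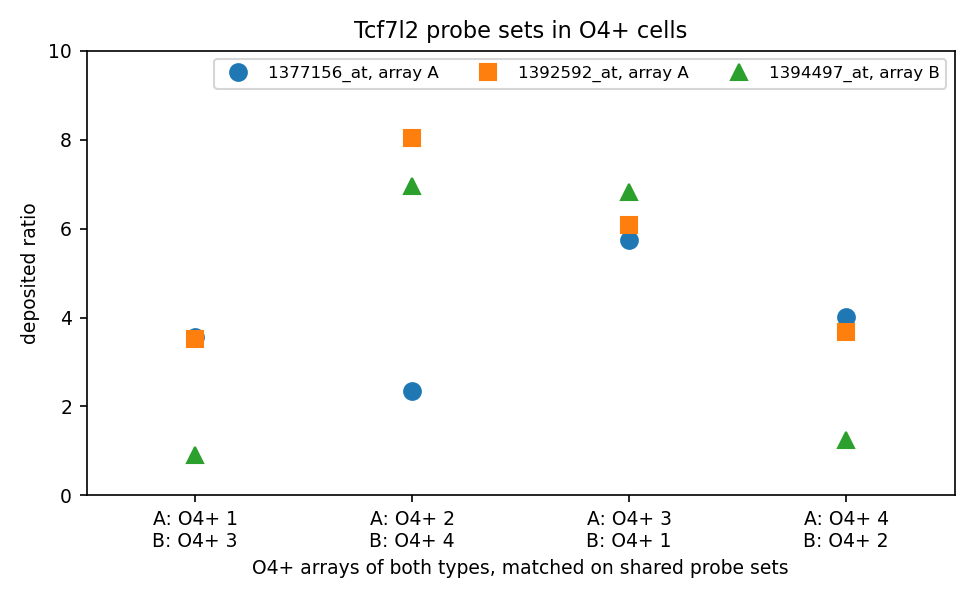
Deposited ratio (vertical axis) of the 3 Tcf7l2 probe sets in O4+ cells, with arrays of both types paired by their match on shared probe sets (horizontal axis). Probe sets 1392592_at and 1394497_at are both highest in the pairs that hold O4+ replicates 2 and 3 of array A. Probe set 1377156_at is lowest in replicate 2. Heights of different probe sets are not comparable, and 1394497_at, low by its median ratio, may be scaled differently.

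Zfp24, a widely expressed zinc finger protein, had 3 probe sets on array B that gave different results. Probe set 1382304_at had ratios of 1.23, 0.945, 1, 0.778 and 0.695 in the A2B5+ arrays and of 2.71, 2.41, 2.27 and 0.995 in the O4+ arrays. O4+ replicates 1 to 3 were above all A2B5+ arrays and O4+ replicate 4 was within their range. The difference was 1.10 ± 0.30 (limma adjusted p = 0.029), 2.15-fold. It grew to 1.43 (adjusted p = 0.0012) without O4+ replicate 4, and leaving out any array except that replicate and A2B5+ replicate 1 ended the call (adjusted p between 0.051 and 0.080).

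The other Zfp24 probe sets showed no difference by the test. Probe set 1380416_at had ratios from 0.783 to 1.20 in A2B5+ cells and from 0.876 to 1.12 in O4+ cells, with a difference of -0.01 ± 0.13 and a 95% interval from -0.31 to 0.29. Probe set 1383445_at ranged from 0.547 to 1.31 and from 0.534 to 1.56, with a difference of 0.08 ± 0.35 and an interval from -0.71 to 0.87. Compared array by array, 1382304_at exceeded 1383445_at by 1.03 more in O4+ than in A2B5+ cells (exact permutation p = 0.016, adjusted p = 0.079 over 5 pairs). Probe set 1380416_at minus 1382304_at changed by -1.12 (exact permutation p = 0.063, adjusted p = 0.16). None of the 5 within-gene pairs passed after adjustment of the permutation test, and 1 did at an unadjusted p under 0.05. With limma on the array B pairs, 2 passed, both between 1382304_at and another Zfp24 probe set (adjusted p = 0.042 for each, over array B pairs alone). That fit drew its variance from these few pairs only. As both pairs share 1382304_at, they are not separate results. The mean of the 3 probe sets differed by 0.39 (adjusted p = 0.18).

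**Figure D3:**
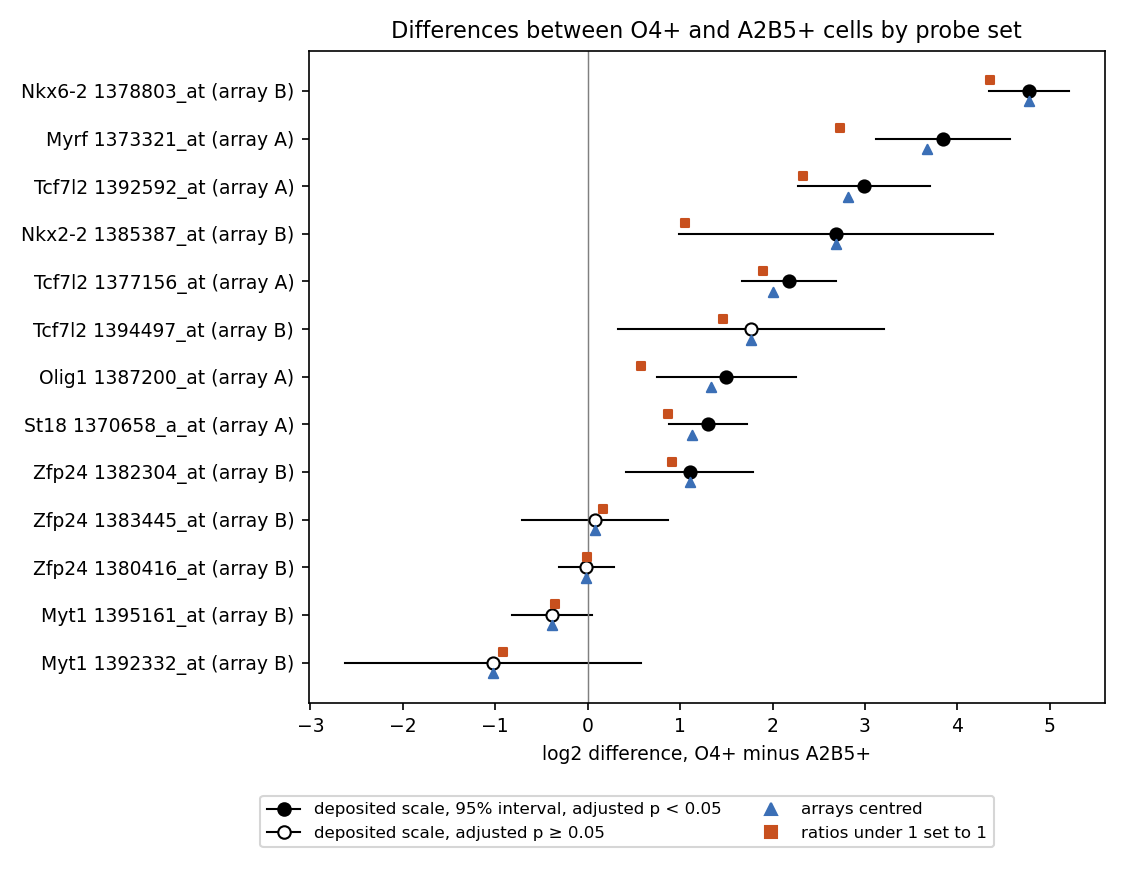
Log2 difference, O4+ minus A2B5+ (horizontal axis), of each probe set with its 95% interval; filled circles have an adjusted p under 0.05. Blue triangles give the value with arrays centred and orange squares with ratios under 1 set to 1, which moves Nkx2-2 from 2.69 to 1.05 and Myrf from 3.84 to 2.73.

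The probe sets most like a member over the 9 arrays, by Pearson correlation of log2 ratios, are given as a description. All points come from the same arrays. For Myrf and Nkx6-2 the correlations are dominated by the difference between populations. The 2 other probe sets listed here were not called. Much of the spread of Myt1 1395161_at lay among A2B5+ arrays (log2 SD 0.39, against 0.06 for O4+). For Tcf7l2 1394497_at much lay among O4+ arrays (SD 1.57, against 0.34 for A2B5+). For Myrf, among 10604 probe sets of other genes on array A, they were Carhsp1 and Cdkn1c, an inhibitor of cyclin-dependent kinases (r = 0.997 for each), and the histone deacetylase Hdac11 (0.996). For Nkx6-2, among 5800 on array B, they were the oligodendrocyte protein Ermn, the inositol transporter Slc5a11 and the potassium channel Kcna6 (0.994, 0.993 and 0.991). For Myt1 probe set 1395161_at they were the axon guidance receptor Robo2 (0.966), Klhl5 (0.938) and Rbm5 (0.937). For Tcf7l2 probe set 1394497_at they were Chfr, Czib and Cradd (0.986, 0.968 and 0.961).

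Genes around the members were followed by list. A gene counts as higher or lower if any of its tested probe sets is called that way and none the other way. Over all 11982 genes tested, 28.7% were higher, 18.2% lower and 0.401% called both ways, with a median difference of 0.12. With arrays centred these shares were 18.8%, 21% and 0.167%. Myelin genes, many of them targets of Myrf, were higher for 27 of 28 tested and lower for 0, with a median difference of 4.27. Among them Mag, through which the myelin sheath contacts the axon, rose by 4.87 ± 0.19, and the ubiquitin ligase Rffl by 2.91 ± 0.12. Cntn2, an adhesion molecule of axons and juxtaparanodes, differed by 0.11 ± 0.13 (limma adjusted p = 0.50).

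Partner factors of the lineage moved both ways, with 9 of 25 tested genes higher and 8 lower and a median of 0.02. Over all genes 28.7% were higher and 18.2% lower. Sox10, which works with Olig and Myrf proteins, rose by 4.68 ± 0.60, and Zfp536, a zinc finger protein, by 2.52 ± 0.20. The thyroid hormone receptor Thra rose by 2.63 ± 0.28 and 1.37 ± 0.34 on its 2 probe sets. Nfib, a nuclear factor I protein of astrocytes and progenitors, fell on both probe sets (-1.87 ± 0.31 and -1.62 ± 0.36), and Sox17 fell by 3.58 ± 0.55. Sox17 is also an endothelial gene, and 7 of 10 endothelial and mural markers were lower too. The mean log2 ratio of these markers on array B was 0.10 to 0.25 in A2B5+ cells and -0.92 to -0.39 in O4+ cells, and their part in the Sox17 value was not tested. Higher and lower counts were 6 and 8 with arrays centred. The lower count was 5 with no filter and 1 with ratios under 1 set to 1, a setting that by its design shrinks falls. It was 4 without O4+ replicate 1, and 5 without A2B5+ replicate 1, A2B5+ replicate 3 or O4+ replicate 4. Olig2 had a probe set below the filter.

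Genes listed as brakes on differentiation were mostly lower, and whether each acts as a brake in these cells was not tested. Of 26 tested, 14 were lower, 2 higher and 1 called both ways, with a median of -0.86. Over all genes 18.2% were lower and 28.7% higher. The higher count ranged from 0 to 5 over the alternatives. Id4, an inhibitor of basic helix-loop-helix factors, fell on 2 of 4 probe sets (-2.02 ± 0.31 and -2.04 ± 0.17), and Hes1, an effector of Notch, fell by 1.21 ± 0.35. Pax6 and Dlx1, factors of neural progenitors and of interneurons, fell too (-3.26 ± 0.44 and -3.40 ± 0.84). Sox6 was higher (0.92 ± 0.30 and 1.91 ± 0.52), the first of these not called with arrays centred. Sox2 was called higher on 1 of 3 probe sets (0.87 ± 0.25, limma adjusted p = 0.032). Hes5 had probe sets called at -1.32 ± 0.45 and 0.42 ± 0.16, the second not called with arrays centred. Neuron and neuroblast markers, which include Dlx1 and Sox11 of this list, were lower for 9 of 16. The lower count was 9 without O4+ replicate 3. It was 3 with ratios under 1 set to 1, a setting that by its design shrinks falls.

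Chromatin partners of the lineage factors were called in both directions, at shares near those over all genes. Of 23 tested, 7 were higher and 5 lower, with a median of 0.25, against 28.7% higher and 18.2% lower over all genes. With arrays centred they were 3 and 5, against 18.8% and 21%. The higher count was 4 without A2B5+ replicate 1 or O4+ replicate 3. The lower count was 2 with ratios under 1 set to 1, a setting that by its design shrinks falls. Hdac11, a histone deacetylase of oligodendrocytes, rose by 4.42 ± 0.30, and the tubulin and histone deacetylase Sirt2 by 3.34 ± 0.34. Hdac1 and Hdac2, histone deacetylases that compete with beta-catenin for Tcf7l2, rose by 0.43 ± 0.12 and 0.38 ± 0.14, and neither was called after centring (limma adjusted p = 0.086 and 0.27). Tle1 and Tle3, Groucho corepressors, differed by 1.26 ± 0.21 and -0.94 ± 0.17, both called.

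Paralogues of the members were not called higher. Of 9 tested, 0 were higher and 2 lower, with a median of 0.04, against 28.7% higher and 18.2% lower over all genes. The number higher by limma was also 0 with arrays centred, and was 1 with no filter, with ratios under 1 set to 1, with array weights, with a trended robust variance or without A2B5+ replicate 5. Tcf7 and Lef1, the Tcf/Lef relatives of Tcf7l2, were the 2 lower ones. Tcf7 fell by 2.14 ± 0.23, and Lef1 fell on both probe sets (-1.37 ± 0.31 and -1.81 ± 0.19), while both array A probe sets of Tcf7l2 rose. Lef1 is also expressed in brain endothelium, whose markers were lower as given above, and their part was not tested. Tcf7l1 differed by -0.37 ± 0.17 and -0.37 ± 0.24, the first called lower after centring (adjusted p = 0.034). With ratios under 1 set to 1, a setting that by its design shrinks falls, 0 paralogues were called lower. Myt1l and Nkx6-1 are added as close relatives of members, named after their values were seen. Myt1l, the neuronal member of the Myt family, differed by 0.08 ± 0.16 and 0.17 ± 0.10, and Nkx6-1 by 0.04 ± 0.17 (adjusted p = 0.86).

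**Figure D4:**
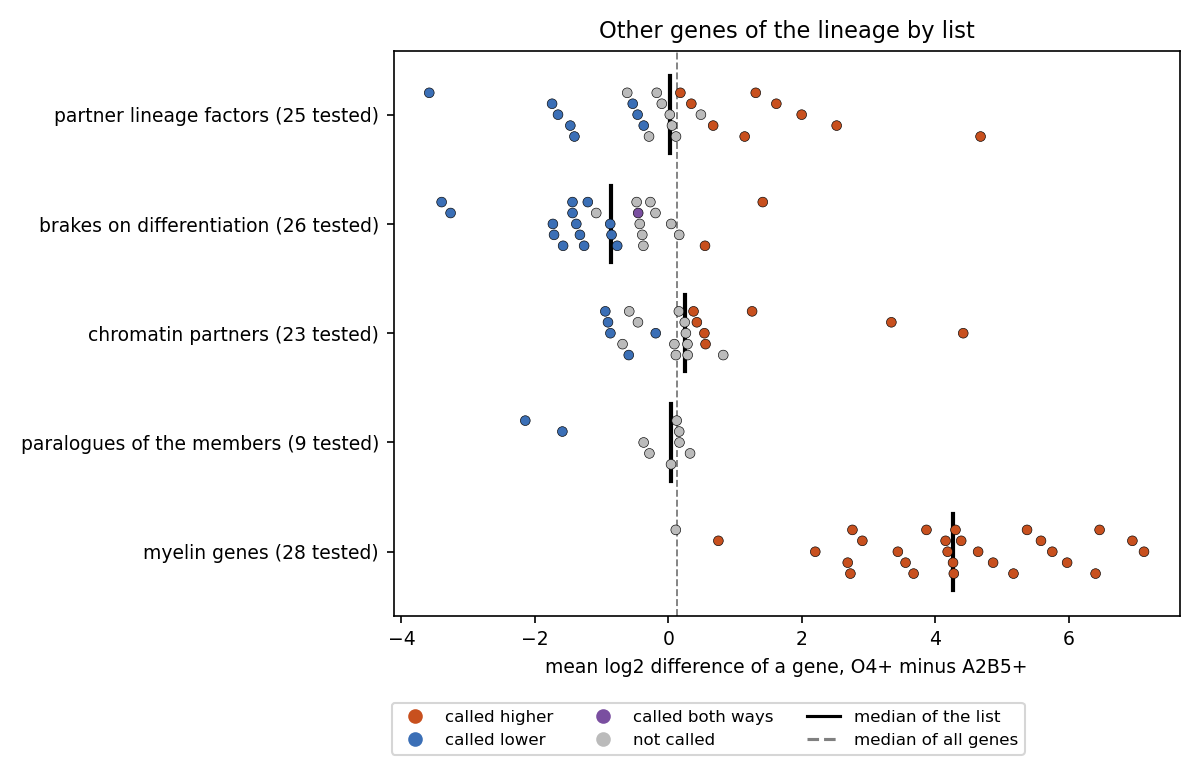
Mean log2 difference of each tested gene, O4+ minus A2B5+ (horizontal axis), in 5 lists; orange genes are called higher, blue lower, purple both ways and grey not called. Black lines mark list medians, from -0.86 for genes listed as brakes on differentiation to 4.27 for myelin genes, and the dashed line the median of all genes, 0.12.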

How the data were processed

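The authors deposited linear ratios, 9 columns for each of 2 array types. The submitters' processing notes name GCRMA, with no version; the step from it to ratios is not described there. In the deposited files 12956 of the 15866 array A probe sets had a median ratio of exactly 1, as did 11014 of 15276 for array B; all others had a lower median. Low probe sets may therefore be scaled differently, and the number of arrays limits the precision.

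The log2 of each ratio was tested without further normalization in limma 3.58.1 (R 4.3.3; lmFit and eBayes, two-sided), on 13098 and 11136 probe sets with a ratio of at least 1 on at least 4 arrays. Related probe sets were compared by exact permutation of arrays. Sample titles gave the population of each array. Genes were named through the platform annotation. The rule named every member probe set, list genes with a call or among the 3 largest or smallest differences (called higher or lower if any probe set was, and none the other way), and the 3 probe sets most like a member. The p-values measure the spread between litters and treat replicates as independent; the sources do not say whether populations shared litters. The members and lists were chosen with earlier results of these data known. The fits were tested on simulated data. Alternatives were other scalings, filters, weights, a replicate block and left-out arrays.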

Additional observations from a re-analysis of the deposited data

Results flagged for a closer look

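Myrf probe set 1373321_at had a ratio of 1 in A2B5+ replicate 1 on array A, far from the 0.316 to 0.423 of the other A2B5+ arrays. The gap to the nearest array was 0.747 of the group's range, above Dixon's critical value of 0.710 for 5 samples. It was the only such case among 26 groups of member values, where chance gives about 1 in 20. Without this array the Myrf difference was 4.12. On the same array Olig1 was also the highest of A2B5+ cells (1.03), while the mean log2 ratio of mature oligodendrocyte markers, -0.82, lay within the range of the other A2B5+ arrays (-0.99 to -0.64).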

How the results depend on the processing

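All 5 array A calls were kept under every alternative that tests probe sets singly. On array B the number of higher calls, 3, was 1 with ratios under 1 set to 1, 2 with no filter (Nkx2-2 lost) and ranged from 1 to 3 when an array was left out; the lower calls ranged from 0 to 1. Fewer samples are part of each left-out fit; the cause was otherwise not tested. Nkx6-2 ranged from 4.19 to 4.88 over all alternatives and kept its call. The mean of the 3 Zfp24 probe sets, 0.39, has the opposite sign to Zfp24 1380416_at, which itself ranged from -0.098 to 0.054 with an array left out, and Zfp24 1383445_at became -0.11 with a replicate block and ranged from -0.14 to 0.37. The difference between these 2 ranged from -0.45 to 0.16. Pairs of probe sets past the threshold numbered 0 by permutation and 2 by limma on array B. Same-numbered samples correlated in their deviations at 0.02, 0.31, 0.27 and 0.17 on array A, where replicates 2, 3 and 4 matched their own number best, and at 0.24 to -0.20 on array B, so numbers were not taken as pairs. The replicate block left 5 and 3 higher calls. As O4+ numbers differ between array types, the array B block says nothing of pairing by litter. How far ratios under 1 can be trusted is unknown.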
